A study of Mus musculus with 25 samples.

Results

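The genes described here are 59 genes grouped under the epididymis and the vas deferens, measured in perigonadal white adipose tissue of male mice. They are 17 named genes (Adam7, Adam28, Lcn5, Lcn8, Lcn9, Lcn10, Lcn12, Gpx5, Crisp1, Rnase9, Rnase10, Cst8, Cst11, Cst12, Akr1b7, Spag11a and Spag11b) and all 42 genes on the array whose symbol is Defb and a number, the β-defensins, out of 37008 genes measured. The β-defensins were taken by symbol alone, whether or not each is known from these organs. All 59 genes had a probe, with 71 probes in total, and the brightest probe of each gene was used. They were chosen by their log2 levels on these arrays, since some arrays of every group carried their transcripts, so the levels below are a description and carry no test.

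The study used 25 male C57BL6/J mice, 1 array each, all fasted for 24 h and then refed for 18 h with food and water holding 20% glucose. In ChREBPβ KO mice (n = 6) exon 1b of Mlxipl, the gene of the glucose-responsive transcription factor ChREBP, had been deleted in every cell by CRISPR/Cas9 in the embryo, so that only the ChREBPβ isoform was lost, and ChREBPβ WT mice (n = 7) were littermates of that line. Total ChREBP-KO mice (n = 5) were Mlxipl-null in every cell, and total ChREBP WT mice (n = 7) were their littermates. The labels give no litter, and arrays are named below by group and replicate number.

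The epididymis is a long coiled duct in which sperm mature, and its epithelium secretes a different set of proteins in each of its segments, mostly under the control of androgens and of factors from the testis. The vas deferens, the tube into which it leads, has an androgen-dependent epithelium inside a thick coat of smooth muscle. In male mice the perigonadal fat pad lies against these organs. Lipocalins carry small lipophilic molecules. The cystatin family is named for inhibitors of cysteine proteases, and whether Cst8, Cst11 and Cst12 act in this way was not tested here. β-defensins and the related Spag11 proteins are small antimicrobial peptides that coat sperm, and CRISP and ADAM proteins bind to the sperm surface.

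An array had a median raw intensity of 84 to 127 over a median local background of 15 to 22, and the scanner software marked 73.0% to 77.9% of its spots as clearly brighter than background. Every wash batch held arrays of all 4 groups. Adipoq, the adipocyte hormone adiponectin, lay at a log2 level of 17.21 to 17.99 on all arrays, so all of them carried adipose tissue. The depot and the share of other tissues cannot be read from it. Mlxipl lay at 14.09 to 14.29 in total ChREBP-KO and 15.64 to 16.28 in total ChREBP WT, and at 14.02 to 14.71 in ChREBPβ KO and 14.70 to 15.43 in ChREBPβ WT, so the KO arrays were below those of their own WT in the total line and overlapped them slightly in the ChREBPβ line. Whether the Mlxipl probe lies inside the deleted parts was not checked.

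On 7 arrays the genes stood apart. On the arrays of total ChREBP WT replicate 2, total ChREBP WT replicate 3, ChREBPβ WT replicate 1, ChREBPβ KO replicate 2, ChREBPβ KO replicate 4, total ChREBP WT replicate 8 and total ChREBP-KO replicate 7, respectively 41, 15, 10, 9, 9, 9 and 7 of the 59 genes lay more than 2 log2 units above their own median over the 25 arrays. The next highest array, ChREBPβ WT replicate 2, had 4, and each of the others had 2 or fewer. This gap held for the quantile-normalised levels only. When arrays were instead scaled by their 75th percentile, ChREBPβ KO replicate 5 went from 1 to 9 raised genes, above total ChREBP-KO replicate 7 at 8. ChREBPβ WT replicate 2 and total ChREBP-KO replicate 4 then had 5 each. The 7 arrays named first, used below as those that stood apart, came from all 4 groups and from all 4 wash batches. Between 16 and 50 of the 59 genes were well above background on an array.

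**Figure D1:**
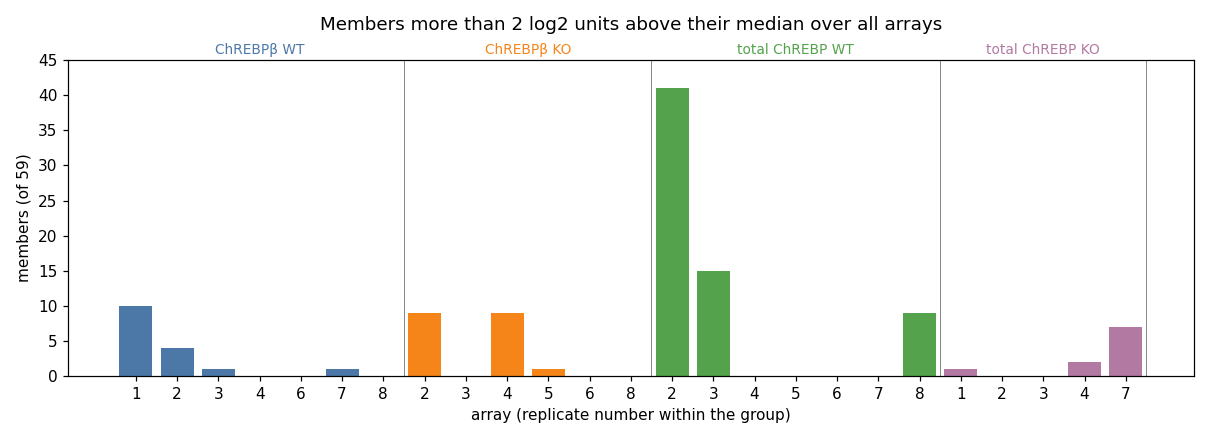
Number of the 59 genes described here that lay more than 2 log2 units above their own median over all 25 arrays, 1 bar per array, coloured by group. Total ChREBP WT replicate 2 reached 41, and 6 other arrays had 7 to 15.

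Of the 59 genes, 42 passed 2 log2 units above their median on at least 1 array, and 37 had their highest level on total ChREBP WT replicate 2. The median range of the 59 genes, from the lowest to the highest array, was 5.75 log2 units, against 0.72 for all genes. The other end was flat: 13 genes had no array more than 1 unit above their median, namely Adam28, Lcn9, Lcn10, Rnase10, Defb3, Defb4, Defb5, Defb6, Defb7, Defb33, Defb45, Defb46 and Defb50. The 10 genes with the largest range were Akr1b7, Lcn5, Defb30, Adam7, Crisp1, Spag11a, Defb21, Defb28, Defb42 and Gpx5. The last of them, Gpx5, had a range of 10.56 and the first below them, Rnase9, a range of 10.14.

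Over the arrays the genes did not move as a single set. Of the 42 genes that passed 2 units, 41 did so on total ChREBP WT replicate 2, all except Cst8, and they differed in which further arrays were high. Akr1b7 and Crisp1 shared 4 such arrays, with total ChREBP WT replicate 3 added for Crisp1, Lcn5, Spag11a and Defb21 shared ChREBPβ KO replicate 4, and Gpx5 had none above 6.49. Adam7, Defb36, Cst8 and Defb1 each had a further pattern.

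**Figure D2:**
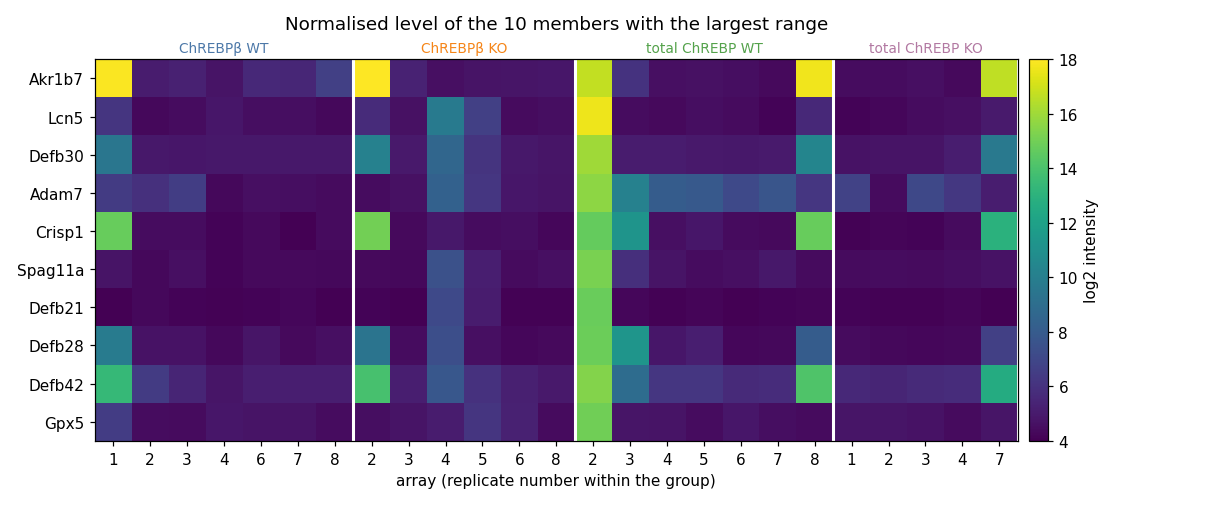
Quantile-normalised log2 intensity of the 10 genes with the largest range (rows) on the 25 arrays (columns, by group and replicate number). Akr1b7, Crisp1 and Defb42 were bright on ChREBPβ WT replicate 1, ChREBPβ KO replicate 2, total ChREBP WT replicates 2 and 8 and total ChREBP-KO replicate 7, whereas Lcn5, Spag11a, Defb21 and Gpx5 were brightest on total ChREBP WT replicate 2 alone.

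Akr1b7 encodes an aldo-keto reductase that is a major protein of the mouse vas deferens. Crisp1 encodes a cysteine-rich secretory protein that epididymal epithelium adds to the sperm surface, and Lcn5 a retinoid-binding lipocalin of the epididymis. Because Akr1b7 and Lcn5 had the largest ranges and Crisp1 was high with Akr1b7, the 250 bases before their RefSeq start sites on GRCm38.p6 are given, 5′ to 3′ on the strand of the gene. Capitals mark the hexamer AGAACA or its reverse complement TGTTCT, a core of the sequence bound by the androgen receptor, and TATAAA or its reverse complement TTTATA, the TATA box. The windows are chr6:34412112-34412361 (plus strand) for Akr1b7, chr17:40319208-40319457 (minus strand) for Crisp1 and chr2:25657702-25657951 (plus strand) for Lcn5.
Akr1b7: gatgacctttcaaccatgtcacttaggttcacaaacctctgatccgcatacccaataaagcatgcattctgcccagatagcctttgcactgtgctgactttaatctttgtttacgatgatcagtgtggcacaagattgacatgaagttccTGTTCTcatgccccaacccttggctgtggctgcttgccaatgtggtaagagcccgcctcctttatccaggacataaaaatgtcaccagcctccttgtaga
Crisp1: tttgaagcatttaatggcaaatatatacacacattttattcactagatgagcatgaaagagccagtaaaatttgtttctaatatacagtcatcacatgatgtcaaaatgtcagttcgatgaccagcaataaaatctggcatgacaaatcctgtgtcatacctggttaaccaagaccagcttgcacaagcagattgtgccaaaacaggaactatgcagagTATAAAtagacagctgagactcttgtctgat
Lcn5: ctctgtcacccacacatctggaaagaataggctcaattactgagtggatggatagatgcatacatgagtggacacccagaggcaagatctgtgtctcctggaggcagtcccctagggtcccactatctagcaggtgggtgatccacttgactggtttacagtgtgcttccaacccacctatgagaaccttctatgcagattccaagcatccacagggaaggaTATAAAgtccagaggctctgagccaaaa
The Akr1b7 window held TGTTCT from 100 to 95 bases before the start and none of the TATA letters. The Crisp1 window held TATAAA from 31 to 26 bases before the start and the Lcn5 window from 28 to 23 bases before it, and neither held the androgen receptor hexamer. Promoters of 41 of the 59 genes were matched by symbol, 43 windows in all. The androgen receptor hexamer was in 20 of the 43 windows, of 19 genes, and in 16.1% of 32851 mouse promoters. The TATA letters were in 7 of the 43 and in 12.4% of all promoters. A match is a description of letters and not of a bound site.

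Akr1b7 was either near its base level or very high. In ChREBPβ WT its log2 level was 4.73 at the lowest, 5.52 at the median and 17.90 at the highest array. In ChREBPβ KO these values were 4.58, 4.82 and 18.05. In total ChREBP WT they were 4.38, 4.62 and 17.68. The other high array of total ChREBP WT, replicate 2, was at 16.71. In total ChREBP-KO the 5 arrays were at 4.47, 4.45, 4.56, 4.38 and 16.68. All 4 groups thus held at least 1 array at 16.68 or above while no array lay between 6.67 and 16.68, and the groups overlapped over their whole range.

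Crisp1 was high on the same 5 arrays and on 1 more. It was at 14.74 on ChREBPβ WT replicate 1, 15.00 on ChREBPβ KO replicate 2, 14.72 on total ChREBP WT replicates 2 and 8, and 12.92 on total ChREBP-KO replicate 7. On total ChREBP WT replicate 3 it was at 11.25, where Akr1b7 was at 6.04. The remaining 19 arrays lay between 3.96 and 4.92. In total ChREBP-KO the values were 4.07, 4.21, 4.16, 4.43 and 12.92.

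Of 5 β-defensins that lie within 71.1 kb of each other on chromosome 14, 4 were high on the same arrays. This locus, from 63596378 to 63667437 on mm9, holds the probes of Defb48, Defb47, Defb43, Defb30 and Defb42. On ChREBPβ WT replicate 1, ChREBPβ KO replicate 2, total ChREBP WT replicate 8 and total ChREBP-KO replicate 7 all of them except Defb47 were more than 2 units above their median. Defb42 was at 13.37, 13.93, 14.15 and 12.63 on these arrays, against a median of 5.75 over all arrays. Defb30 was at 9.50, 10.15, 10.37 and 9.66, against a median of 4.93. On total ChREBP WT replicate 2 all 5 were raised, Defb42 to 15.41 and Defb30 to 16.01.

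Beyond that locus, few of the genes were raised on those 4 arrays. Defb28, on chromosome 2, was at 9.85, 9.39, 8.10 and 6.66 on them, in the same order, and Defb2, on chromosome 8, at 8.65, 7.93, 8.40 and 5.70. Lcn5 was at 6.17, 5.75, 5.60 and 5.03, and Adam7 at 6.43, 4.48, 6.24 and 5.11. None of Lcn5, Adam7, Gpx5, Spag11a and Defb21 was more than 2 units above its median on any of the 4 arrays.

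The lipocalin Lcn5 shared its highest array, total ChREBP WT replicate 2, with Akr1b7, and its next highest was ChREBPβ KO replicate 4, where Akr1b7 was not raised. In ChREBPβ WT its lowest, median and highest log2 levels were 4.31, 4.50 and 6.17. In ChREBPβ KO they were 4.40, 5.17 and 9.72, the highest being replicate 4. In total ChREBP WT they were 4.15, 4.49 and 17.63, the highest being replicate 2. The 5 arrays of total ChREBP-KO were at 4.15, 4.25, 4.49, 4.59 and 5.03. The highest array of the ChREBPβ line was thus a KO and that of the total line a WT, and all other arrays of the 4 groups lay at 6.66 or less and overlapped.

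Gpx5, a secreted glutathione peroxidase of the first part of the epididymis, reached 14.98 on total ChREBP WT replicate 2 and no more than 6.49 on any other array. In the other 6 arrays of total ChREBP WT it was at 4.83 or less, and in total ChREBP-KO it was at 4.78, 4.79, 4.70, 4.43 and 4.79. Rnase9, which encodes an RNase A family protein of the epididymis, was at 14.36 on total ChREBP WT replicate 2 and next at 6.26 on ChREBPβ KO replicate 4 and total ChREBP WT replicate 3. These genes thus marked 1 array above all.

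Spag11a and Defb21 had the same highest and next highest array as Lcn5. Spag11a was at 15.17 on total ChREBP WT replicate 2 and 7.49 on ChREBPβ KO replicate 4, and Defb21 at 14.82 and 7.09. Neither was well above background on any array of ChREBPβ WT or total ChREBP-KO, where Spag11a was at 4.16 to 4.72 and Defb21 at 3.96 to 4.28. ChREBPβ KO replicate 4 was the array on which Lcn5, Spag11a, Defb21, Adam7 and Defb30 were raised while Akr1b7 (4.58) and Crisp1 (4.92) were not.

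**Figure D3:**
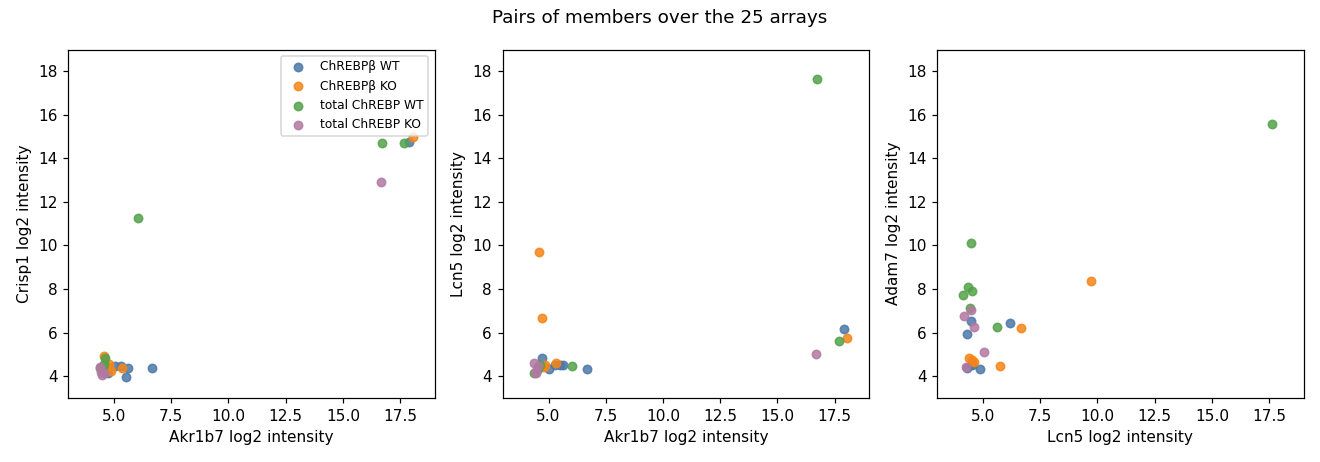
Log2 intensity of pairs of genes on the 25 arrays, 1 point per array, coloured by group. Crisp1 was high wherever Akr1b7 was high and on 1 array more, Lcn5 was at 5.03 to 6.17 on 4 of the 5 arrays with high Akr1b7 against a median of 4.50 over all arrays, and Adam7 covered 4.32 to 10.13 on arrays where Lcn5 was below 7.

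The β-defensins divided by locus and by array. Of 16 genes at 18974949 to 19497728 on chromosome 8 (mm9), 9 were raised by more than 2 units on total ChREBP WT replicate 2, and 5 (Defb37, Defb38, Defb39, Defb40 and Spag11b) on total ChREBP WT replicate 3. ChREBPβ KO replicate 4 had 1 of the 16, Spag11a, and no other array had any. Of 9 genes at 22905599 to 23059038 on the same chromosome, 8 were raised on total ChREBP WT replicate 2, all except Defb50. Of 11 genes at 152285053 to 152448152 on chromosome 2, 10 were raised on that array, all except Defb45. No probe of another gene shared a run of 20 bases with the probe used for any of the 59 genes (0 of 59). Probes were compared only with other probes and not with transcripts, so binding of RNA from a related gene was not tested.

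Total ChREBP WT replicate 3 had 15 raised genes. Crisp1 was at 11.25, Defb28 at 11.31, Adam7 at 10.13 and Defb42 at 8.96. Defb37, Defb38, Defb39 and Defb40 were at 7.13, 7.80, 7.14 and 7.58, and the only array above these was total ChREBP WT replicate 2. On this array Akr1b7 (6.04), Lcn5 (4.49), Defb30 (5.05) and Gpx5 (4.78) were less than 2 units above their medians.

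Some of Cst8, Cst12, Defb19, Defb29 and Defb36 were also high on arrays where Akr1b7, Crisp1 and Lcn5 were not. On ChREBPβ WT replicate 2, Cst8, a cystatin-related protein of testis and epididymis, was at 7.72, its highest level, Cst12 at 5.87, Defb19 at 6.86, Defb29 at 8.86 and Defb36 at 9.50, while Akr1b7 was at 5.04, Crisp1 at 4.48 and Lcn5 at 4.31. On total ChREBP-KO replicate 4, Defb36 was at 10.28, Defb29 at 9.31 and Cst8 at 6.21, while Cst12 was at 4.90 and Defb19 at 4.66. These genes were not confined to such arrays. Defb29 and Defb19 were highest on total ChREBP WT replicate 2, at 13.90 and 7.43, and Defb36 was at 8.67 there. On ChREBPβ KO replicate 4 Defb29 was at 9.02 and Defb36 at 9.10, and on total ChREBP WT replicate 3 at 8.33 and 8.78. The testis and sperm list described below was at 6.18 and 6.66 on these 2 arrays. On total ChREBP WT replicate 8 Defb29 was at 8.12 and Defb36 at 8.22, and on ChREBPβ WT replicate 1 Defb29 was at 8.19. On ChREBPβ WT replicate 2 and total ChREBP-KO replicate 4 the list of 11 testis and sperm genes with a probe was high too. Its mean log2 level was 9.31 on ChREBPβ WT replicate 2 and 8.12 on total ChREBP-KO replicate 4, and 8.61 on total ChREBP WT replicate 2, against 5.27 to 7.11 elsewhere. Prm1, the sperm chromatin protein protamine 1, was at 14.08 on ChREBPβ WT replicate 2, 11.60 on total ChREBP-KO replicate 4 and 11.80 on total ChREBP WT replicate 2. Defb36 was also at 9.44 on total ChREBP-KO replicate 1, where the testis and sperm list was at 6.01.

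Defb1, a β-defensin that is also made by many epithelia including that of the kidney, had a further pattern. It was at 9.33, 9.46 and 9.12 on ChREBPβ WT replicates 1, 3 and 7 and at 9.66 on total ChREBP WT replicate 2, and at 6.66 or less elsewhere. In total ChREBP-KO it was at 4.24, 4.28, 4.24, 4.29 and 4.86. On the 3 ChREBPβ WT arrays the mean of 8 kidney genes was 10.25, 10.35 and 9.19, and on all other arrays 5.22 to 7.59, including 6.55 on total ChREBP WT replicate 2. Kap, an androgen-regulated protein of the kidney tubule, was at 16.08, 16.12 and 15.02 on the 3 arrays and at 6.77 on total ChREBP WT replicate 2.

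**Figure D4:**
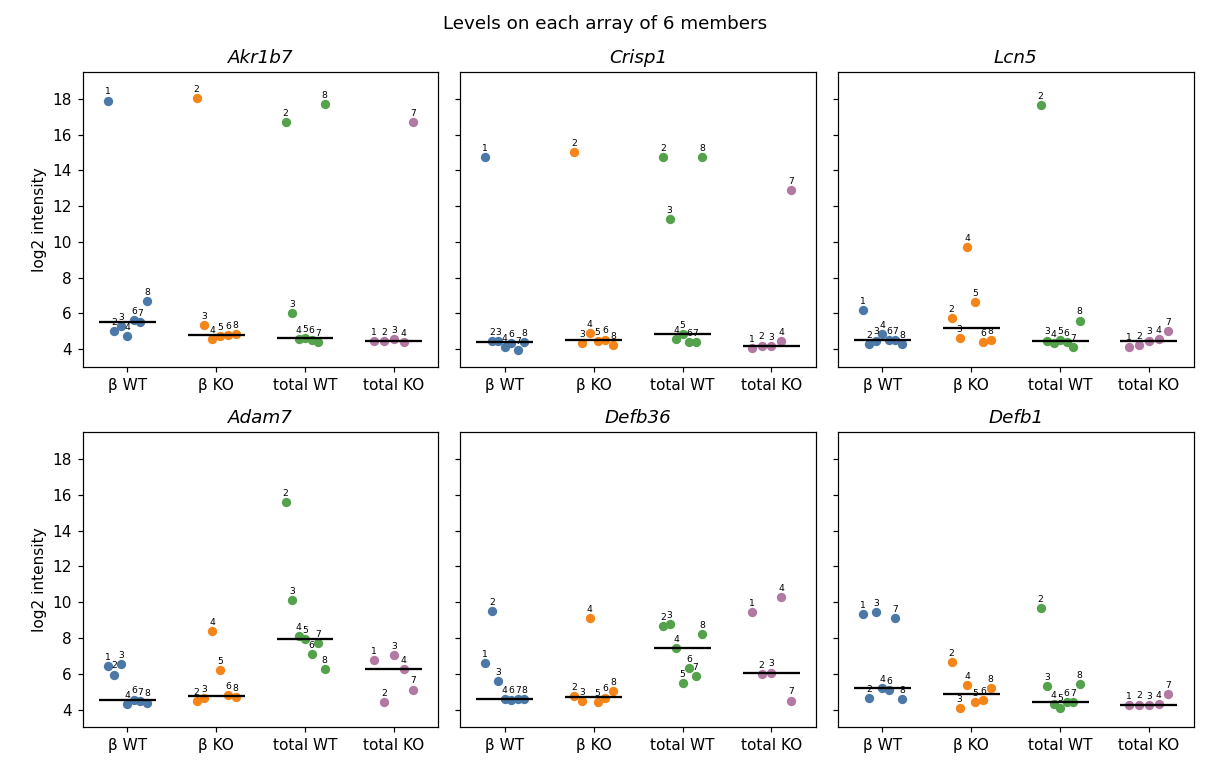
Log2 intensity of 6 genes on each array, by group, with replicate numbers beside the points and a black line at the group median. Akr1b7 and Crisp1 were high on 1 or more arrays of every group, Lcn5 reached 17.63 on 1 array, all 7 total ChREBP WT arrays of Adam7 were at 6.24 or above, and Defb36 and Defb1 were high on further arrays.

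None of the 59 genes was called different between ChREBPβ KO and ChREBPβ WT at an adjusted p under 0.05 (limma, adjusted over all 56605 probes), where 0% of genes were called. Only 1, Adam28, had an unadjusted p under 0.05, against 8.12% of all genes. The lowest adjusted p was 0.598, and 38 differences were positive and 21 negative, with a median of 0.042. For Akr1b7 the fitted difference was 0.020 with an SE of 2.93 log2 units, and for Lcn5 it was 1.15 with an SE of 1.56, so the spread between arrays was larger than either difference.

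Between total ChREBP-KO and total ChREBP WT, 0 of the 59 were called by limma, where 6.08% of genes were called, and 2 had an unadjusted p under 0.05 (Adam7 and Spag11b), against 16.4% of all genes. The differences were negative for 50 genes and positive for 9, with a median of -0.90, against 0.014 for all genes. Without total ChREBP WT replicate 2, the array with 41 raised genes, the median was -0.11 (47 negative, 12 positive), and without the 7 arrays that stood apart it was -0.0032 (30 negative, 29 positive). Those arrays were picked by the levels of these same genes, so a small median without them was largely set by that choice. No conclusion is drawn from it. The KO effects of the lines differed for 0 of the 59 genes, where 2.21% of genes were called, and 3 had an unadjusted p under 0.05, against 10.7% of all genes. The lowest adjusted p was 0.147 for the total line and 0.432 for the difference between the lines.

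Adam7 was the gene called between the wild types of the lines. ADAM7 is a membrane protein of the epididymis that is passed on to sperm. Its lowest, median and highest log2 levels were 6.24, 7.93 and 15.60 in total ChREBP WT and 4.32, 4.56 and 6.52 in ChREBPβ WT. The ranges overlapped by 1 array of total ChREBP WT (replicate 8) and 2 of ChREBPβ WT (replicates 1 and 3). In ChREBPβ KO the values were 4.48, 4.77 and 8.37, and the 5 arrays of total ChREBP-KO were at 6.78, 4.42, 7.03, 6.25 and 5.11. Adam7 was well above background on 7 of 7 arrays of total ChREBP WT, 3 of 7 of ChREBPβ WT, 3 of 6 of ChREBPβ KO and 4 of 5 of total ChREBP-KO.

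Total ChREBP WT exceeded ChREBPβ WT by 3.73 log2 units (SE 1.05, adjusted p = 0.0191 by limma, n = 7 and 7). Of the 59 genes this was 1, or 1 of 47 with a positive difference, where 14.4% of all genes were called (8.44% higher in total ChREBP WT). The median difference over the 59 genes was 1.02, against 0.020 for all genes, and it was 0.10 without total ChREBP WT replicate 2 and 0.0056 without the 7 arrays that stood apart. These arrays were left out because of the levels of these same genes, which largely sets such medians, and no conclusion is drawn from them. Another Adam7 probe, whose levels had a Spearman rho of 0.96 with the first over the 25 arrays, gave 3.00 (SE 0.91, adjusted p = 0.0302 by limma). Within wash batches 1 to 4 the difference of the means was 2.58, 4.17, 1.95 and 6.45. Without total ChREBP WT replicate 2 it was 2.53 (adjusted p = 0.00986 by limma). Without the 7 arrays that stood apart, a choice made on the levels of these genes, it was 2.69 (adjusted p = 0.0115 by limma). In the total line the difference of KO minus WT for Adam7 was -3.09 (SE 1.16, adjusted p = 0.147 by limma), which did not pass, and in the ChREBPβ line the difference was 0.23 (adjusted p = 0.988 by limma). Between the wild types 9 of 10 liver genes were also called, lower in total ChREBP WT, and their part in the Adam7 difference was not tested.

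Spag11b, the neighbour of Spag11a on chromosome 8, just missed the threshold in the same comparison. Its lowest, median and highest levels were 4.77, 5.63 and 9.77 in total ChREBP WT and 4.44, 4.58 and 5.55 in ChREBPβ WT, with a difference of 1.52 (SE 0.52, adjusted p = 0.0568 by limma). In total ChREBP-KO it was at 5.09, 4.48, 4.99, 5.28 and 4.50. Defb1 differed by -1.40 (SE 0.89, adjusted p = 0.346 by limma) between the wild types. Without total ChREBP WT replicate 2 this became -2.22 (adjusted p = 0.0407 by limma), lower in total ChREBP WT. In that fit 3 genes (Adam7, Spag11b and Defb1) were called, where 15.5% of all probes were called. Without total ChREBP WT replicate 3, Adam7 and Defb4 were called, where 12.3% of all probes were called. Defb4 was lower in total ChREBP WT by only 0.20 (a difference of -0.20). It had a median of 3.97 and a range of 0.59 over all arrays and was well above background on none. Without the 7 arrays, picked by the levels of these genes, Adam7 and Defb1 were called, where 11.6% of genes were called.

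Other genes known from the epididymis moved on the same arrays. Of 36 further epididymis genes, 26 were more than 2 units above their median on total ChREBP WT replicate 2, 12 on total ChREBP WT replicate 3, 10 on ChREBPβ KO replicate 4, 9 on ChREBPβ WT replicate 1, 8 on ChREBPβ KO replicate 2 and on total ChREBP WT replicate 8, 4 on total ChREBP-KO replicate 7, and 2 or fewer on every other array. Spink8, a protease inhibitor of the epididymis, was at 16.75 on total ChREBP WT replicate 2 and at 15.12, 15.26, 14.98 and 13.18 on the 4 other arrays with high Akr1b7. Crisp4, a relative of Crisp1, was at 11.51 on total ChREBP WT replicate 2 and at 6.08 or less elsewhere. Between groups, 0 of the 36 were called in the ChREBPβ line, where 0% of all genes were called. In the total line 1 of the 36 was called (Tex101, higher in KO), where 6.08% of all genes were. Between the wild types 2 of the 36 were called (Aqp9 and Tex101, lower in total ChREBP WT), where 14.4% of all genes were. For the difference of the KO effects 0 were called, where 2.21% of all genes were.

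Smooth muscle genes were higher on the arrays with high Akr1b7. The mean log2 level of 6 smooth muscle genes was 13.61 on ChREBPβ KO replicate 2, 13.58 on total ChREBP WT replicate 8, 12.997 on ChREBPβ WT replicate 1, 12.47 on total ChREBP-KO replicate 7 and 12.31 on total ChREBP WT replicate 2, and 10.82 to 11.63 on the other 20 arrays. Cnn1, the contractile protein calponin, was at 15.82, 15.84, 14.92, 14.61 and 14.08 on these 5 arrays and at 11.81 or less on all others. ChREBPβ KO replicate 4 (11.20) and total ChREBP WT replicate 3 (11.36), where Lcn5 or Adam7 were raised without Akr1b7, lay within the range of the other arrays.

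Liver genes differed between the lines of mice. The mean log2 level of 10 liver genes, among them that of albumin, was 12.65 to 15.98 in ChREBPβ WT, 11.32 to 15.51 in ChREBPβ KO, 8.38 to 13.33 in total ChREBP WT and 8.24 to 9.13 in total ChREBP-KO. Their median difference between the wild types was -4.70. Of 8 kidney genes 1, Kap, was called lower as well, where 14.4% of all genes were called. The highest liver level of total ChREBP WT was on replicate 2. The 7 mesothelial genes had a mean of 9.72 to 11.61, lowest on ChREBPβ KO replicate 2. In the 4 comparisons 0 of them were called, where 0% to 14.4% of all genes were called.

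The mean of 14 seminal vesicle and prostate genes was 4.49 to 5.91. It was highest on total ChREBP-KO replicate 4, and next at 5.35, 5.31 and 5.29 on total ChREBP WT replicate 2, total ChREBP-KO replicate 7 and ChREBPβ WT replicate 1, which had high Akr1b7. The remaining arrays with high Akr1b7 were lower, ChREBPβ KO replicate 2 at 4.55 and total ChREBP WT replicate 8 at 4.94. The 10 adipocyte genes had a mean of 15.86 to 16.39, and the lowest of these was total ChREBP WT replicate 2. In the total line 3 of the 10 (Plin1, Cidec and Car3) were called higher in KO, where 6.08% of all genes were called. Between the wild types 1 was called higher and 1 lower (Lep and Lipe), where 14.4% of all genes were called. In the ChREBPβ line and for the difference of the KO effects 0 were called, where 0% and 2.21% of all genes were. The mean of 10 epithelial genes was 10.73 on total ChREBP WT replicate 2, 9.99 on total ChREBP WT replicate 8 and 9.77 on ChREBPβ WT replicate 2. The lowest array was at 7.46. On the other arrays with high Akr1b7 it was 9.61 (ChREBPβ KO replicate 2), 9.54 (ChREBPβ WT replicate 1) and 8.38 (total ChREBP-KO replicate 7). ChREBPβ KO replicate 4 (9.56) and total ChREBP-KO replicate 4 (9.35), without high Akr1b7, lay above the last of these. The mean of 9 androgen-regulated duct and vas deferens genes was 8.56 on total ChREBP WT replicate 2 and next 8.39 on total ChREBP-KO replicate 4. On the other arrays with high Akr1b7 it was 8.19 (ChREBPβ WT replicate 1), 8.03 (total ChREBP WT replicate 8), 7.52 (total ChREBP-KO replicate 7) and 7.43 (ChREBPβ KO replicate 2). The lowest array was at 7.31. Among these 9 genes, 0, 1 (Aqp1), 1 (Aqp1) and 0 were called in the ChREBPβ line, the total line, the wild types and the difference of the KO effects. Of all genes 0%, 6.08%, 14.4% and 2.21% were called in these comparisons. In bulk tissue, more cells of a type and more RNA per cell cannot be told apart, and the part of any of these tissues in the levels of the 59 genes was not tested.

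**Figure D5:**
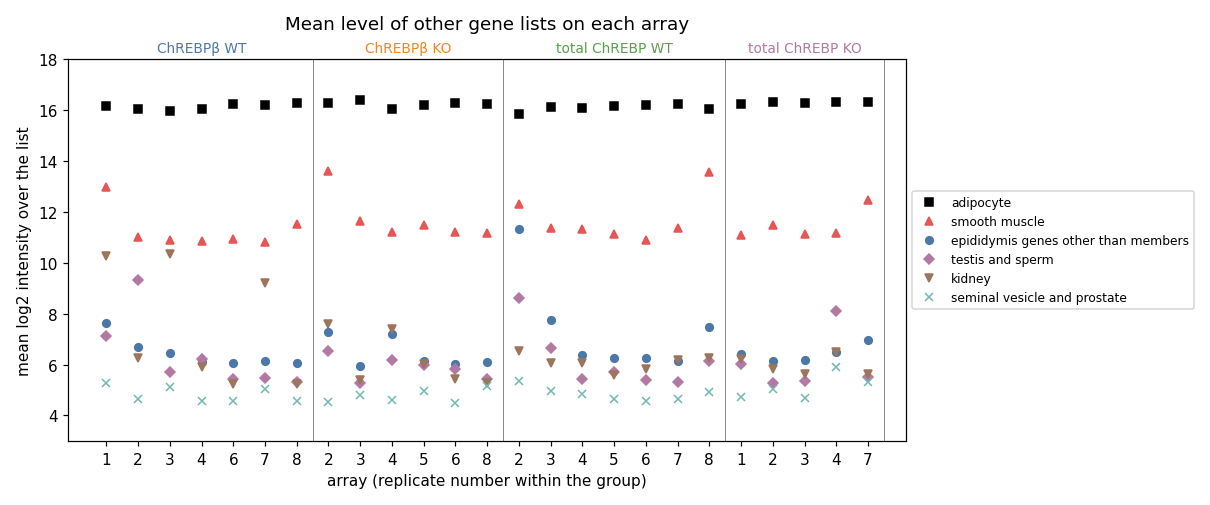
Mean log2 intensity of 6 other gene lists on each array, 1 symbol per list and array. Epididymis genes outside the 59 peaked on total ChREBP WT replicate 2, smooth muscle genes were raised on 5 arrays, testis and sperm genes on ChREBPβ WT replicate 2, total ChREBP-KO replicate 4 and total ChREBP WT replicate 2, kidney genes on 3 ChREBPβ WT arrays, and adipocyte genes stayed between 15.86 and 16.39.

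Among 36949 other genes, those whose levels ran most like the mean of the 10 genes over the 25 arrays, by Spearman rho, were Wfdc10 (0.94), Cited1 (0.85), Eddm3b (0.84), Shh (0.84), Ces5a (0.83), Spink8 (0.82), Ramp1 (0.82), Rnase12 (0.81), Sh3bgr (0.81) and Mmp17 (0.80). Without the 2 arrays farthest from the median of that mean, total ChREBP WT replicate 2 and ChREBPβ WT replicate 1, these ranged from 0.76 to 0.93. Wfdc10, a WAP-domain gene that was on the epididymis list, went from 4.83 to 15.78. Ramp1 and Mmp17 moved little, from 7.35 to 9.98 and from 7.07 to 8.47. The arrays share their normalisation, and the values describe likeness over these arrays only.

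For 9 of the 59 genes there was more than 1 probe, and they did not always match. The other probes of Adam28 and Rnase10 lay lower and were as flat. The other probe of Lcn9 had a median of 4.24 and reached 5.63 on ChREBPβ WT replicate 1, so it had a wider range (1.65) than the brightest (0.69). Lcn12 was at 9.20 to 12.56 with the brightest probe and at 9.40 on total ChREBP WT replicate 2 against a median of 4.48 with the other. Of 3 further Defb30 probes, 1 reached 14.54 on total ChREBP WT replicate 2 and 1 never exceeded 5.80. A level near base for the brightest probe of a gene with several probes therefore does not describe the others.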

How the data were processed

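RNA of perigonadal white adipose tissue from 25 mice was labelled with Cy3 and hybridised to single-colour Agilent arrays. Per the file headers, the deposited scanner files hold the median pixel intensity of each spot, not corrected for background, from Feature Extraction 10.10.1.1. The authors also deposited a series table of log2 values, normalised by quantiles and filtered on dim spots, which served as an alternative. Median intensities were log2-transformed and quantile-normalised over all 59305 gene spots without a dim-spot filter, flagged outlier spots were set to missing and replicated probes merged by their median (56605 probes). Gene names came from RefSeq tables (32994 probes by accession, 10224 by symbol, 520 by older symbol) or from the array (12867). The gene with several probes was represented by the probe with the highest mean.

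The 4 groups, from the labels, entered a single limma 3.58.1 fit (R 4.3.3) with wash batch as a term, 18 residual degrees of freedom and Benjamini-Hochberg adjustment over all probes. On simulated data of the same 56605 probes, 90%, 88% and 89% of 200 probes changed by 1 log2 unit were recovered for the ChREBPβ line, the total line and the wild types. The noise was normally distributed and the 200 probes were drawn at random from all probes. These shares do not apply to genes that were high on a few arrays only, such as Akr1b7 with an SE of 2.93 log2 units in the ChREBPβ line. The member genes and lists were chosen with earlier results of these data known. The 10 genes with the largest range over arrays, and every gene called, were named with full values. Names of Cst8, Cst12, Defb19, Defb29, Defb36, Defb1 and Spag11b were added after their values were seen. Nothing in the labels says how litters were shared between groups, and p-values measure the spread between these mice. Alternatives were another scaling (75th percentile of the processed signal), normexp, the dim-spot filter, the deposited log2 table, no wash batch, slide as a random block (correlation 0.03), the replicate number as a block, array weights, the mean over probes and leaving out each array. Probe positions are those of the array design on mm9, with no annotation of that build used here, and promoters are RefSeq GRCm38.p6. Precision is set by the number of arrays, 5 to 7 per group.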

Additional observations from a re-analysis of the deposited data

Results flagged for a closer look

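Among 44 group values tested (the 10 genes and the number of raised genes in each of 4 groups), 26 single arrays were farther from the rest of their group than Dixon's 95% critical value, where chance flags about 1 in 20 groups of values not chosen for their spread. These genes were chosen by their levels on these arrays and the 10 by their range, so that rate does not apply and the count is a description. The arrays were few, as 25 of the 26 lay on ChREBPβ WT replicate 1, ChREBPβ KO replicates 2 and 4, total ChREBP WT replicate 2 and total ChREBP-KO replicate 7.

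ChREBPβ WT replicate 1 stood out for Akr1b7 (17.90), Lcn5 (6.17), Defb30 (9.50), Crisp1 (14.74), Defb28 (9.85), Defb42 (13.37) and Gpx5 (6.49), with 10 raised genes. ChREBPβ KO replicate 2 stood out for Akr1b7 (18.05), Crisp1 (15.00) and Defb42 (13.93), and ChREBPβ KO replicate 4 for Spag11a (7.49) and Defb21 (7.09). Total ChREBP WT replicate 2 stood out for Lcn5 (17.63), Adam7 (15.60), Spag11a (15.17), Defb21 (14.82) and Gpx5 (14.98), with 41 raised genes. Its Akr1b7, Crisp1 and Defb42 levels were not outliers in this sense, since replicate 8 of the same group was high as well. Total ChREBP-KO replicate 7 stood out for Akr1b7 (16.68), Defb30 (9.66), Crisp1 (12.92), Defb28 (6.66) and Defb42 (12.63), with 7 raised genes. Total ChREBP-KO replicate 4 was low for Gpx5 (4.43), by less than 1 log2 unit.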

How the results depend on the processing

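Of 43 counts recomputed under alternatives other than leaving out an array, 35 kept within 1.5 times the count reported and 8 did not. Between the wild types the 1 gene called became 2 (Adam7 and Spag11b) under the 75th-percentile scaling, with the deposited log2 values, without the wash batch term and with array weights, and 2 (Adam7 and Defb1) without the 7 arrays that stood apart, an alternative chosen after seeing the data. Leaving out each array in turn gave 1 to 3. The counts of the other 3 comparisons stayed at 0 in every leave-one-out fit (0 to 0). The dim-spot filter left 16 of the 59 genes, 21 were among the deposited log2 values, and the cause of the differences was not tested. With the flag for positive and significant spots, the median number of genes detected per array was 41 in place of 22. The 7 arrays that stood apart were picked on the quantile-normalised levels. ChREBPβ KO replicate 5, which had 9 raised genes under the 75th-percentile scaling, was kept when they were left out. Adam7 kept its call between the wild types in all alternatives, at 2.69 to 5.39 (adjusted p 0.00456 to 0.0409 by limma), and at 2.53 to 4.30 (adjusted p 0.00779 to 0.0417) with an array left out.

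Replicate numbers did not pair the arrays: correlations of same-numbered arrays were -0.33 to 0.25, and 0 of 9 correlated best with its own number. With the replicate number as a block, 2 genes were called between the wild types and 2 in the total line (Adam7 at -3.48, adjusted p = 0.0324 by limma, and Spag11b at -1.55), and in the ChREBPβ line Adam7 (-0.076), Defb21 (-0.0040) and Gpx5 (-0.36) changed sign.

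Differences that were not called changed sign in several fits. For Akr1b7 in the ChREBPβ line the difference was -0.60 under the 75th-percentile scaling, -0.018 with the deposited values, -0.20 without the wash batch term and -0.051 with array weights, and between the wild types it was -0.14 with array weights. Leaving out each array gave, for Akr1b7, -2.58 to 1.58 in the ChREBPβ line, -3.63 to 0.47 in the total line, -0.45 to 2.90 between the wild types and -3.39 to 1.83 for the difference of the KO effects. In the ChREBPβ line it gave -0.42 to 0.58 for Adam7, -1.49 to 1.96 for Crisp1, -0.045 to 0.84 for Defb21, -0.54 to 1.15 for Defb28, -0.79 to 1.81 for Defb42, -0.19 to 0.47 for Gpx5 and -0.0030 to 0.89 for Spag11a. In the total line it gave -2.47 to 0.036 for Defb30 and -1.69 to 0.15 for Gpx5, and between the wild types -0.022 to 1.99 for Defb21, -0.28 to 1.72 for Gpx5 and -0.23 to 2.10 for Lcn5. The number of arrays, and levels near background for most of these genes on most arrays, limit what can be seen.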
